A study of Oncorhynchus kisutch with 9 samples.

Results

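Growth hormone transgenic coho salmon (Oncorhynchus kisutch) kept on full ration were set against non-transgenic fish by hybridising liver RNA of both to the same spotted salmonid cDNA microarrays. This comparison holds 3 of the 9 arrays of the study, chosen as those whose channels were labelled with the full-ration transgenic pool (T) and the non-transgenic control pool (C). On array 1 the T pool was in the Cy5 channel, and on arrays 2 and 3 it was in the Cy3 channel. The T pool and the C pool each combined equal quantities of liver RNA from 5 adult fish, and 20 ug of total RNA entered each labelling. The other 6 arrays set another pool of 5 fish, ration-fed growth hormone transgenic salmon (R), against C on 3 arrays and T against R on 3 arrays. The sources used here give neither the amounts fed nor an age beyond adult, and they do not name the construct or promoter of the transgene. Each condition is 1 pool, so the 3 arrays are technical repeats of 1 comparison of pools. No SD or count below covers variation between fish, and no test of a condition was made.

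Growth hormone is secreted by the pituitary and acts on the liver through the growth hormone receptor, which signals through the kinase JAK2 and the transcription factor STAT5. The liver answers with insulin-like growth factor 1, which carries much of the growth response, and with changes in the handling of sugar, fat and protein. Growth hormone transgenic salmon hold an extra growth hormone gene and, fed freely, outgrow unmodified fish. The comparison of T with C asks how the liver of transgenic fish fed full ration differs from that of unmodified fish.

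The table gave 1 ratio of the 2 channels for each of 8736 spots on each array, with 0 missing values. Spots in an odd column and the even column beside it are read here as the 2 spots of a pair, which makes 4368 pairs, each named by its first spot. Of the 8736 spots, 8 carried a single gene symbol in the platform annotation. They were the pairs of col1a2, tap1, pck2 and pparg. Spots with several symbols, if any, were left out, and only these 4 genes count as named or annotated here. No growth hormone, insulin-like growth factor or hepatocyte marker was among them, so the labelled tissue and transgene could not be checked on a named gene. In liver RNA a difference can also come from a change in the share of a cell type, and fewer cells of a type and less RNA per cell cannot be told apart.

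The sources used here do not say which dye stood on top of the deposited ratio. Ratios were turned to T over C by the dye labels, and the opposite sides are called direction 1 (positive values) and direction 2 (negative values). If the deposited ratio is Cy5 over Cy3, direction 1 means more of a transcript in T than in C. If it is Cy3 over Cy5, direction 1 means less. Unless said otherwise, values are log2 ratios centred on the median of each array. The mean of a spot or pair is dye-balanced, so arrays 2 and 3 were averaged first and then averaged with array 1. A spot was called when this mean reached a size of 1 (2-fold on the log2 scale) and all 3 arrays had the same sign.

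By the 2-fold rule a small share of the spots was called between the T and C pools, with differences of up to 7.15-fold at a pair. A spot that was not called is not thereby shown to be alike in both pools. Of 8736 spots, 222 (2.54%) were called, 175 (2%) in direction 1 and 47 (0.538%) in direction 2. Both spots were called at 88 of 4368 pairs (2.01%), of which 66 lay in direction 1 and 22 in direction 2. The median difference of these pairs was 2.47-fold in direction 1 and 2.43-fold in direction 2. The excess of direction 1 depended on the scaling. With a dye trend common to the 9 arrays removed from each by a lowess curve, 190 spots (2.17%) were called, 117 (1.34%) in direction 1 and 73 (0.836%) in direction 2. The split was 63 against 56 with equalised spread of the arrays, 95 against 78 with a plain mean of the 3 arrays and 438 against 27 without centring. Without centring the median of all spots stood at 0.19, against -0.05 on centred values.

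The farthest pairs in direction 2 changed sides with the dyes. Pair 7011209 stood at -2.66 on array 1 and at 2.43 and 2.66 on arrays 2 and 3 as deposited. After centring and turning, these became -1.95, -3.82 and -3.63, with a dye-balanced mean of -2.84 ± 1.03 (SD over 3 arrays), a 7.15-fold difference. All 3 arrays thus lay on one side once turned, and array 1 lay nearest to 0. Pair 10010303 followed with deposited values of -2.55 on array 1 and 2.21 and 2.51 on arrays 2 and 3. Its mean was -2.69 ± 0.98, a 6.46-fold difference. Both pairs are unnamed, as is every other pair of this paragraph and the next.

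Next in direction 2, pair 4030703 differed by 5.26-fold, with turned values of -1.60, -3.61 and -2.77 on arrays 1, 2 and 3. Pair 3030713 differed by 5.09-fold, with values of -1.61, -3.42 and -2.76. Pair 7040603 differed by 4.89-fold, with values of -1.72, -2.84 and -2.88. These 3 pairs and the 2 before them, together with pair 3010405 at 4.72-fold (-1.21, -3.34 and -3.18), are the 6 pairs of direction 2 that were called on both spots and exceeded 4-fold. A gap followed. The difference was 3.32-fold at pair 10020411 and 2.71-fold at pair 11010305. Pairs 6020413 and 10021311 closed the 10 farthest at 2.51-fold and 2.43-fold. At pair 10021311 array 1 lay nearest to 0, with -0.36 against -2.38 and -2.03 on arrays 2 and 3. Pair 6020413 was alike, with -0.38 against -2.43 and -2.12. With the dye trend removed the 3 arrays stood at -1.34, -1.33 and -1.45 at pair 10021311 and at -1.37, -1.32 and -1.48 at pair 6020413.

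In direction 1 the signs were the mirror image. Pair 1010605 stood at 2.68 on array 1 and at -2.85 and -3.11 on arrays 2 and 3 as deposited. Turned values were 3.39, 1.45 and 2.15, with a mean of 2.60 ± 0.98 and a difference of 6.05-fold. Here array 1 lay farthest from 0, the reverse of what was seen in direction 2. Pair 2030909 differed by 5.91-fold, with turned values of 3.54, 1.28 and 1.89. Pair 9011105 differed by 5.09-fold, with 3.14, 1.29 and 1.82. Pair 8020605 differed by 4.94-fold, with 3.10, 1.26 and 1.74. These 4 pairs had the same order of arrays, 1 above 3 above 2.

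Pairs 3030303 and 3030605 broke that order. Pair 3030303 had turned values of 3.43, 1.35 and 1.01 and a 4.93-fold difference. Pair 3030605 had 2.96, 1.46 and 0.85 and a 4.16-fold difference. On both, array 3 was lowest. Pair 3010407 completed the 7 pairs above 4-fold in direction 1, at 4.05-fold, and it is printed next to pair 3010405, which lies 4.72-fold in direction 2. Pairs 1011001, 2011103 and 8040601 followed at 3.83-fold, 3.63-fold and 3.24-fold.

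**Figure D1:**
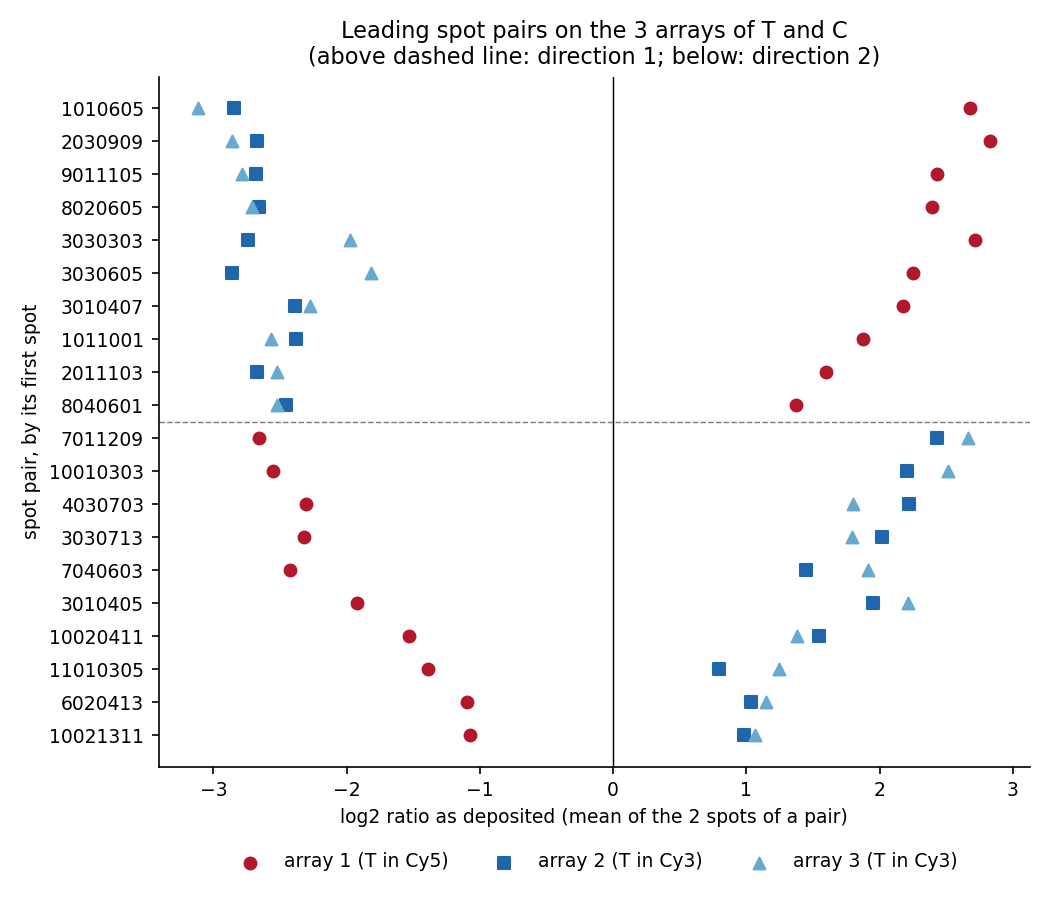
Deposited log2 ratio (horizontal axis) of the 10 farthest pairs of each direction (rows, by first spot) on array 1, with T in Cy5, and arrays 2 and 3, with T in Cy3; each point is the mean of the 2 spots of a pair. On all 20 pairs array 1 lies on the other side of 0 from arrays 2 and 3.

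As deposited, before any centring or turning, array 1 stood on the other side of 0 from arrays 2 and 3 at all 20 of these pairs and at 87 of the 88 pairs called on both spots. Over all 4368 pairs this was so at 1303 (29.8%). A call asks for the same sign after centring and turning, which by itself favours such mirrored values, so these counts describe the called pairs and are no separate evidence.

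None of the 4 genes with a name was called on either of its 2 spots, where 2.54% of all spots were. The largest difference was that of col1a2, which codes for one of the chains of type I collagen, the chief fibre protein of connective tissue, made in liver chiefly by stellate cells and fibroblasts. Its deposited values were 0.47 on array 1 and -0.81 and -0.97 on arrays 2 and 3. Centred and turned, these were 1.18, -0.59 and 0.00, so the arrays lay on both sides of 0 and the 1.36-fold mean in direction 1 was smaller than its SD (0.45 ± 0.90). Each SD given here is that of the 3 arrays around their plain mean. It holds any difference between the dye orders, so it is no error of the dye-balanced mean. With the dye trend removed the values were 0.23, 0.25 and 0.42, all on one side, with a mean of 0.28 ± 0.10, or 1.22-fold. The other 6 arrays gave an indirect T over C of 0.51. Even so, 1077 of the 4368 pairs (24.7%) had a larger difference than col1a2 with the trend removed.

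The gene tap1 encodes a subunit of the peptide transporter that loads class I major histocompatibility molecules, part of antigen processing. Its turned values were -0.12, -0.33 and -0.48 on arrays 1, 2 and 3, a mean of -0.26 ± 0.18 in direction 2, or 1.20-fold. With the trend removed array 1 moved to 0.07, while arrays 2 and 3 stood at -0.41 and -0.52, so the mean of -0.20 ± 0.31 was smaller than its SD. On centred values tap1 alone of the 4 genes kept 1 sign on all 3 arrays, and with the trend removed it did not.

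The gene pck2 encodes the mitochondrial phosphoenolpyruvate carboxykinase, an enzyme of glucose synthesis. Its turned values were 0.73, -0.99 and -0.73, with a mean of -0.06 ± 0.93. With the trend removed they were -0.23, -0.12 and -0.28, with a mean of -0.22 ± 0.08 (1.16-fold) in direction 2. The indirect ratio did not settle its side, at 0.16 on centred values and -0.001 with the trend removed. For pparg, a nuclear receptor that governs fat storage, the turned values were 0.05, -0.09 and 0.01, with a mean of 0.004 ± 0.070. It was the pair nearest to no difference among the 4, and 4316 of 4368 pairs (98.8%) had a larger one. With the trend removed its mean was 0.03 ± 0.14.

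Other genes of these pathways could not be described. Of 68 genes in 14 lists of liver pathways and cell markers, 4 were annotated on the array, namely tap1 of 6 genes of antigen processing, pck2 of 6 of glucose metabolism, pparg of 9 of lipid metabolism and col1a2 of 5 of the extracellular matrix. The list of the growth hormone and insulin-like growth factor axis had 0 of 11 members annotated. Among cell markers, col1a2 was 1 of 3 for stellate cells and fibroblasts and pparg 1 of 3 for fat cells, and markers of hepatocytes, red and white blood cells, muscle and exocrine pancreas had 0 annotated. The part of other cell types in the differences was not tested.

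The error of a pair has several layers, and they differed in size. The 2 spots of a pair differed in their dye-balanced mean by a median of 0.10, and by 0.07 at the 88 pairs called on both spots. At 95% of all pairs the spots differed by no more than 0.35. Arrays 2 and 3, which share the dye order, differed by a median of 0.29 per pair. The 2 dye orders differed by a median of 0.78, more than 2 times as much. The SD over the 3 arrays, 0.48 in the median pair and 0.88 at the 88 called pairs, therefore mostly shows the gap between dye orders. Array 1 alone had T in Cy5, so dye order and a trait of that 1 array cannot be told apart in this gap. The dye-balanced mean averages this gap out only as far as the dyes act with equal size in both orders.

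That gap ran along a common axis. The mean of all 9 centred arrays, in which the pool differences of the 3 comparisons cancel if ratios follow the dyes, was used to divide the pairs into a lower and an upper class. A limit of 0.2, chosen after the distribution was seen, put 2629 pairs below and 1739 above. The classes are not cleanly apart, since 344 pairs lay within 0.1 of that limit. Median deposited values of the upper class were 0.17 on array 1, -0.76 on array 2 and -0.67 on array 3, and those of the lower class were -1.11, -1.59 and -1.07. The classes thus lay 1.27 apart by these medians on array 1 and less on arrays 2 and 3. Of the 88 pairs called on both spots, 82 lay in the upper class, 60 in direction 1 and 22 in direction 2.

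**Figure D2:**
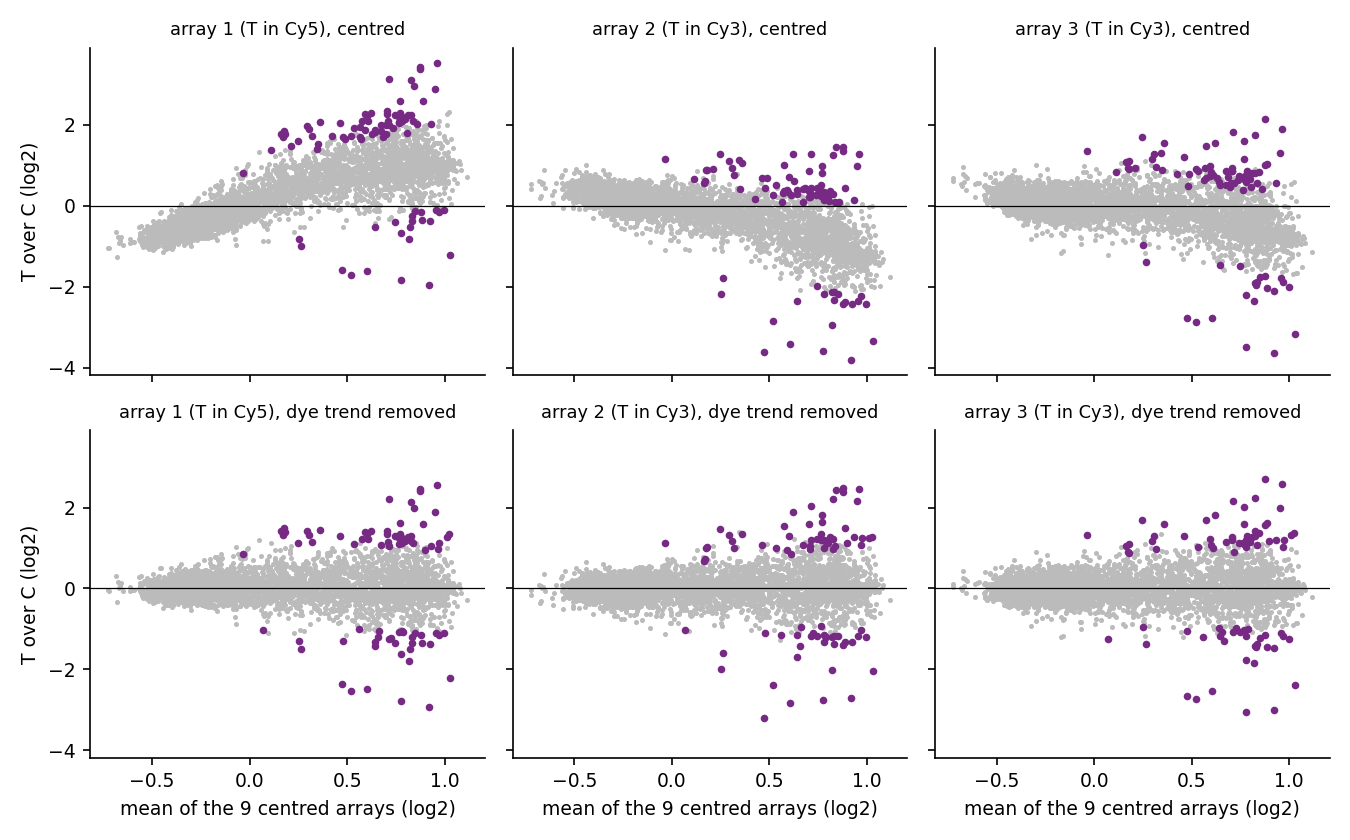
T over C log2 ratio on each array (vertical axis) against the mean of the 9 centred arrays (horizontal axis, log2) for 4368 spot pairs, centred (top) and with the dye trend removed (bottom); purple marks pairs called on both spots in that setting. The cloud rises on array 1 and falls on arrays 2 and 3 before removal, and it is level afterwards.

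The classes also differed in the dye-balanced mean. The median T over C was 0.16 in the upper class and -0.14 in the lower class, and the part of the dyes and of the pools in this was not tested. After a lowess curve on the 9-array mean was subtracted from each array, these medians were -0.001 and -0.01, which the curve brings about by construction. The median gap between dye orders was then 0.12, that between arrays 2 and 3 was 0.17, and the median SD over the 3 arrays was 0.14. A pair kept 1 sign on all 3 arrays at 2273 of 4368 pairs (52.0%), against 748 (17.1%) on centred values. The 9-array mean holds these 3 arrays too, so part of the smaller gap, smaller SD and like signs follows from the fit. That part was not measured. The curve also removes any pool difference that runs along the same axis, by an amount that was not tested.

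The calls of both settings largely overlapped. Both spots were called at 82 pairs (1.88%) with the trend removed, 49 in direction 1 and 33 in direction 2, and 65 pairs were called on both spots in both settings. All 20 leading pairs were among these 65. Pair 7011209 had values of -2.93, -2.72 and -3.00 on arrays 1, 2 and 3 with the trend removed, a mean of -2.89 ± 0.15. Pair 2030909 had 2.55, 2.45 and 2.59, a mean of 2.54 ± 0.07. The 3 arrays now lay close together at both pairs, where on centred values they had spread over more than 1 log2 unit.

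In 3 leading pairs the arrays still disagreed. With the trend removed pair 3030605 had 1.99, 2.43 and 1.37 on arrays 1, 2 and 3 (1.95 ± 0.53). Pair 3030303 had 2.45, 2.37 and 1.58 (2.21 ± 0.49). Pair 4030703 had -2.37, -3.21 and -2.65 (-2.65 ± 0.43). The SD of the other 17 leading pairs was 0.25 or less. All 3 pairs were printed in block column 3, in block rows 3 and 4. Over all pairs of those blocks arrays 2 and 3 differed by a median of 0.18 and 0.19, and over the whole array by 0.17. Leading pair 3030713, also in block row 3 and block column 3, had -2.49, -2.84 and -2.53 (-2.59 ± 0.19). The median of a block cannot show an error of a few spots, and the cause was not tested.

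At 46 pairs only 1 spot was called. Its partner lay on the same side at all 46, by at least 1.5-fold. The median log2 size was 1.09 at the called spot and 0.96 at its partner, and the lowest partner stood at 0.80. No partner was near 0. Some partners fell short of the threshold, while others reached 2-fold in the mean and lacked a common sign on the 3 arrays. Among all spots, 33 reached 2-fold in the mean and were not called because the 3 arrays did not share a sign. Partners of the latter kind are among these 33. With the trend removed there were 0 such spots among 190.

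The calls thinned out quickly with size, and not alike on both sides. Taking the mean of the 2 spots of each pair, 455 pairs (10.4%) differed by at least 1.25-fold with 1 sign on all 3 arrays, 331 in direction 1 and 124 in direction 2. At 1.5-fold there were 220 and 56, at 2-fold 88 and 24, and at 3-fold 14 and 7. From 4-fold on the directions were nearly even or turned over, with 7 and 6 pairs at 4-fold, 3 and 4 at 5-fold and 1 and 2 at 6-fold. With the trend removed the counts were 56 and 36 at 2-fold, 9 and 8 at 3-fold, 5 and 6 at 4-fold and 2 and 5 at 5-fold. The surplus of direction 1 was thus found among the smaller differences, while the 4 pairs at 6-fold or more with the trend removed all lay in direction 2. Of these, pairs 4030703 and 3030713 passed 6-fold only with the trend removed, and stood at 5.26-fold and 5.09-fold on centred values.

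**Figure D3:**
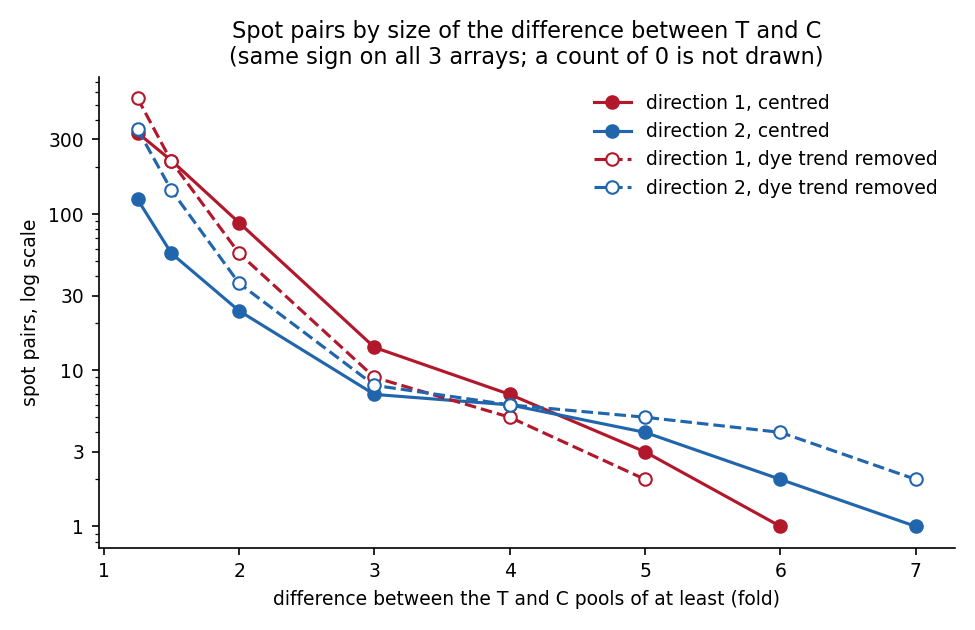
Number of spot pairs (vertical axis, log scale) whose T over C difference was at least the fold on the horizontal axis with the same sign on all 3 arrays, for direction 1 (red) and direction 2 (blue), centred (filled, solid) and with the dye trend removed (open, dashed). Direction 1 holds more pairs up to 3-fold in both settings and fewer at 5-fold and above.

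The 6 arrays that were not used for these calls gave a second reading of the same pools. Adding R over C and T over R yields T over C through the R pool. It shares both pools with the direct ratio, so it bears on the hybridisations and not on the fish. All 66 pairs called on both spots in direction 1 lay on the same side in the indirect ratio, 60 of them by at least 2-fold, with a median log2 size of 1.28 against 1.31 in the direct ratio. All 22 pairs in direction 2 did so too, 20 of them by at least 2-fold, with a median of 1.30 against 1.28. In each direction the medians of both ratios lay close together on these centred values. With the trend removed, all 49 pairs called on both spots in direction 1 kept their side in the indirect ratio, 38 by at least 2-fold. So did all 33 in direction 2, 29 of them by at least 2-fold. No such share over all pairs is given here, so these counts are not read as particular to the called pairs. Pairs that were not called can share a side as well. On centred values col1a2 had 0.45 directly and 0.51 indirectly, tap1 -0.26 and -0.33, and pparg 0.004 and 0.03. The gene pck2, at -0.06 and 0.16, did not share a side. The part of the dye trend common to the 9 arrays in the likeness of both ratios was not tested.

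Among the leading pairs both readings were mostly near each other. Pair 7011209 had an indirect value of -2.87 against -2.84 directly. Pair 2030909 had 2.54 against 2.56, and pair 3010405 had -2.24 in both. The values of these pairs were nearly equal. Pair 4030703 had -1.63 indirectly against -2.39, or 3.09-fold against 5.26-fold, and pair 3030713 had -1.95 against -2.35. Both kept their side, and for pair 4030703 the direct arrays also disagreed among themselves.

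**Figure D4:**
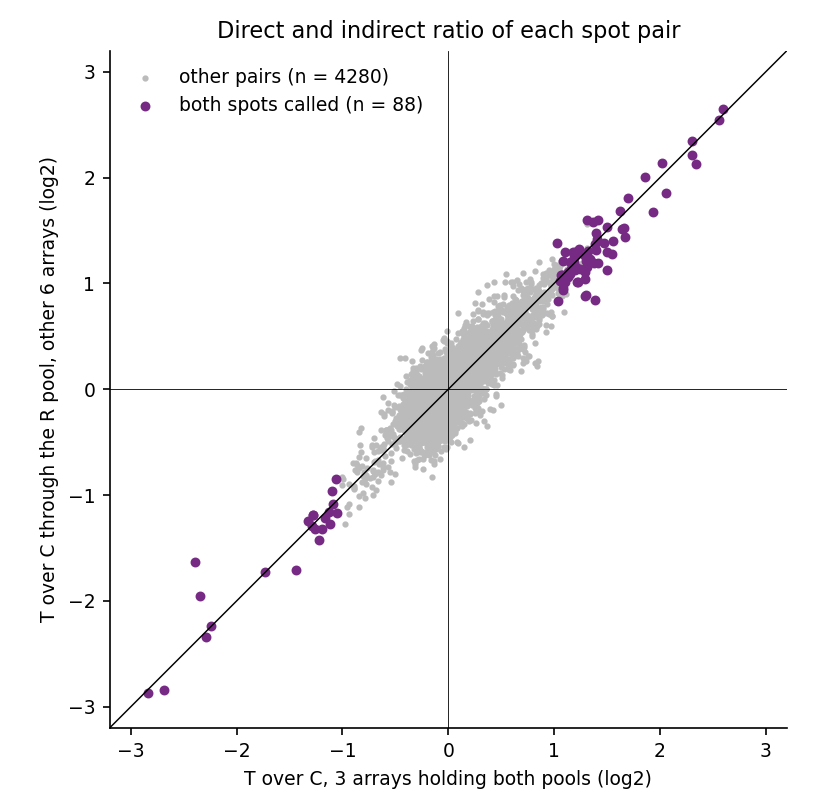
Dye-balanced log2 T over C of each spot pair from the 3 arrays that hold T and C (horizontal axis) against the same ratio through the R pool from the other 6 arrays (vertical axis), both centred; purple marks the 88 pairs called on both spots and the line marks equal values. All 88 pairs lie on the same side of 0 on both axes. Pairs that were not called can do so too, and no share over all pairs is given. Pair 4030703 is farthest off the line among the pairs beyond 4-fold.

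Set beside the comparisons it shares pools with, T over C held 222 called spots (2.54%), while there were 80 (0.916%) when R was set against C and 87 (0.996%) when T was set against R. Pairs called on both spots numbered 88, 35 and 31. At 1% of pairs the log2 size exceeded 1.31 for T over C, 0.97 for R over C and 1.00 for T over R. The median SD over arrays on these centred values was 0.48, 0.42 and 0.45, highest for T over C. With the trend removed it was 0.14, 0.14 and 0.15, and pairs called on both spots numbered 82, 34 and 36. No test was made between these comparisons, since each rests on 1 pool a condition.

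The leading pairs of T over C did not share 1 pattern in the other comparisons. At pair 10010303 R over C was -2.44 and T over R -0.41, and at pair 7040603 they were -2.09 and -0.25. At pair 1011001 R over C was 1.88 and T over R -0.20. At these pairs the distance between T and C was nearly all found between R and C. At pair 9011105 R over C was -0.01 and T over R 2.14, at pair 6020413 they were -0.08 and -1.16, and at pair 3010405 -0.44 and -1.80. There the distance was mostly found between T and R. At pair 1010605 they were 1.45 and 1.20, at pair 2030909 1.45 and 1.09, and at pair 11010305 -0.86 and -0.85, so the R pool stood about midway. These comparisons share pools with T over C and with each other, and their values are given side by side only.

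**Figure D5:**
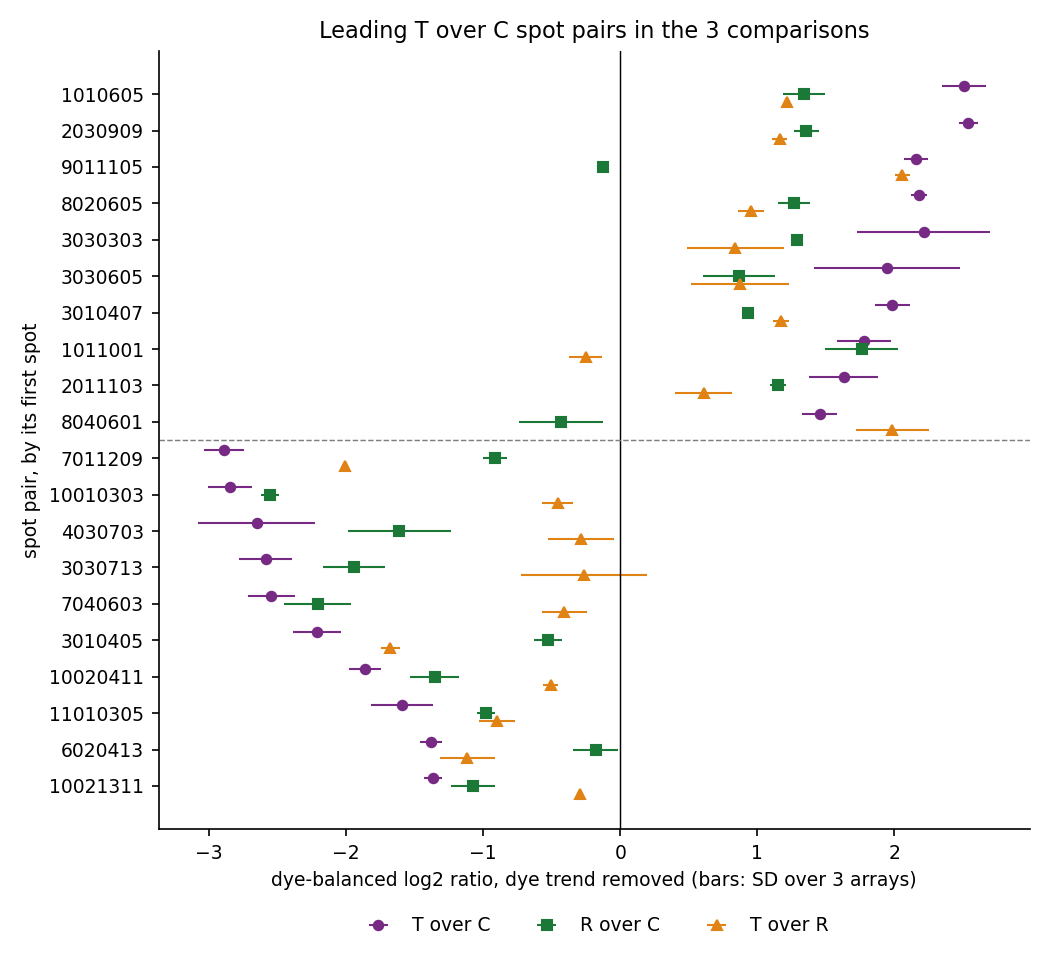
Dye-balanced log2 ratio with the dye trend removed (horizontal axis; bars are the SD over 3 arrays) of the 20 leading pairs of T over C (rows) in each of the 3 comparisons. R over C lies near T over C at pairs such as 10010303 and 1011001 and near 0 at pair 9011105, and pair 8040601 has R over C below 0 and T over C above 0.

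Pairs called on both spots were spread over the print. By the spot numbers the print has 48 blocks, each with 13 rows, 14 columns and 91 pairs, a layout inferred from those numbers. Of these blocks 38 held at least 1 such pair and 10 held none, with a median of 2 pairs. The most, 6 pairs, lay in block row 1, block column 1. Pairs 1010605, 1011001, 1010309, 1010913 and 1011011 of this block lay at 2.60, 1.94, 1.67, 1.19 and 1.05. Only pair 1010413 of the block lay in direction 2, at -1.28. Over the whole print 66 of the 88 pairs lay in direction 1. Centring each block on its own median gave 214 called spots, 168 in direction 1 and 46 in direction 2.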

How the data were processed

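The deposited table holds log2 ratios of the 2 channels of 9 spotted 2-colour arrays, as read from the values. The labels do not name a scale. With base 2, 336 of 26208 deposited values on the 3 T and C arrays equalled, to the printed precision, a fraction of whole numbers whose denominator did not exceed 1000, against 3 with base e and 16 with base 10. The sources used here do not give the scanner, background treatment, channel scaling or filters, and signal over background is unknown. The number of arrays limits the precision. Median deposited values of the 3 arrays were -0.71, -1.39 and -0.97, so the deposited values were not centred on the median of each array. Direction stays unknown, and a scaling of the channels before deposit was not settled. From these values, arrays were centred on their medians, turned by dye label and averaged within and then over dye orders. The dye trend was removed with lowess (statsmodels 0.14.6, Python 3.11.15; fraction 0.3, 3 iterations). The code that makes the calls, not the calls themselves, was checked on simulated ratios with known changes. Named were all annotated genes and the 10 farthest pairs of each direction among pairs called on both spots. All 4 symbols, and 0 of their gene IDs, occur in the RefSeq coho annotation Okis_V2. The comparison, lists and settings were chosen with earlier results of these data known.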

Additional observations from a re-analysis of the deposited data

Results flagged for a closer look

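On centred values 1 leading pair had all arrays of T over C on one side of 0 and all arrays of R over C on the other. At spot pair 8040601 T over C was 1.70, with values of 2.09, 1.06 and 1.55 on its 3 arrays, whereas R over C was -0.34, with values of -0.18, -0.34 and -0.42. All arrays of T over C lay in direction 1 and all arrays of R over C in direction 2. With the dye trend removed the means were 1.46 ± 0.13 and -0.43 ± 0.31 (SD over 3 arrays). The centred R over C amounted to 1.27-fold, below the 2-fold of a call. With the trend removed pair 9011105 also had means on opposite sides, at 2.16 ± 0.09 for T over C and -0.13 ± 0.04 for R over C. Its centred R over C was -0.01. These differences were not tested.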

How the results depend on the processing

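All values here are for T over C, against 222 called spots, 88 pairs with both spots called and 78.8% of calls in direction 1. Uncentred values gave 465 spots, 193 pairs and 94.2%. Equalised spread gave 119 spots, 48 pairs and 52.9%. The 1.5-fold threshold gave 552 spots, 199 pairs and 77.9%, and 2-fold on every array gave 35 spots, 13 pairs and 65.7%. The mean of the 2 spots as 1 feature gave 112 calls, over fewer features, and 78.6%. The share in direction 1 was 61.6% with the dye trend removed and 54.9% with a plain mean of the 3 arrays. Leaving out 1 array gave 211 to 590 spots, 84 to 248 pairs and 5.76% to 88.4%. The 590 spots, 248 pairs and 5.76% were those without array 1, the only array with T in Cy5, which leaves the dyes uncancelled. With the dye trend removed, leaving out 1 array gave 188 to 206 spots and 76 to 79 pairs, with shares of 59.0%, 58.3% and 62.4% without array 1, 2 and 3. The indirect ratio, called by size alone, gave 289 spots, 107 pairs and 81.3%. The 20 leading pairs kept their side under 12 alternatives, which for the plain mean, equalised spread and arrays left out on centred values follows from the sign that a call asks for. Of 48 values of the 4 genes under these alternatives, 10 lay on the other side of 0, 6 of them of pparg, 3 of pck2, 1 of col1a2 and 0 of tap1. The side of col1a2 changed without array 1 on centred values, at -0.29 against 0.45. No paired analysis was possible because replicate numbers here stand for repeat hybridisations of 1 pair of pools. Intensities were not used here, so no filter for dim spots was run, and no value was missing. The cause of these differences was not tested beyond what is stated.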

Other observations

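Arrays 2 and 3, the repeats of like dye order, differed most along 1 edge of the print. With the dye trend removed, the median difference between them per pair was 0.40, 0.31 and 0.29 in block columns 4, 1 and 3 of block row 12, the 3 highest of 48 blocks, and 0.22 in block column 2, the fifth highest. Over all pairs it was 0.17. Block row 12 held 7 of the 88 pairs called on both spots, close to its share of 4 of the 48 blocks. Of the 7, 3 lay in block column 3, 3 in block column 4, 1 in block column 2 and 0 in block column 1.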
